A study of Homo sapiens with 9 samples.

Results

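The replication-dependent histone genes were taken as the GENCODE version 44 protein-coding genes (GRCh38) whose names are H1-1 to H1-5 or a core histone type followed by C and a number, such as H2AC6 or H4C11. The rule found 68 genes among 20046 protein-coding genes: 5 H1, 17 H2A, 18 H2B, 13 H3 and 15 H4 genes. Their occupancy by RNA polymerase II was read from 3 lists of ChIP-seq peaks for its largest subunit, POLR2A, made in the human embryonic kidney line HEK293T. Cells carried a control shRNA (shCtrl, genotype given as wildtype), a knockdown of U2AF1, which binds the 3′ splice site, or a knockdown of DHX9, a helicase of RNA and DNA. Each condition had 2 ChIP replicates and 1 input, but 1 deposited list. No value below therefore has a replicate error, and no difference between lists could be tested against the spread between replicates. How far U2AF1 or DHX9 was reduced cannot be read from peaks.

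Replication-dependent histone genes supply the histones that package newly made DNA and are transcribed mainly in S phase. They lie in dense clusters, where the factor NPAT gathers the transcription machinery into histone locus bodies. Their mRNAs are not polyadenylated: they end in a stem-loop that is bound by SLBP, and most of the genes have no introns. All 68 canonical transcripts had 1 exon and a median length of 487 bases, but 16 genes also had an annotated transcript with more than 1 exon.

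A gene was counted as having a peak when the summit of a peak, its position of highest signal, lay within 1000 bp of any annotated start of that gene. In the control list 38 of 68 histone genes had a peak, or 55.9% (95% Wilson interval 44.1 to 67.1), against 12.6% of all protein-coding genes. In the U2AF1 knockdown list 25 genes had one, or 36.8% (26.3 to 48.6), against 6.64% of protein-coding genes. In the DHX9 knockdown list the number was 38 again, or 55.9% (44.1 to 67.1), against 21.0%. The intervals cover counting error only, and neighbouring histone genes share peaks: the 38, 25 and 38 genes rested on 30, 22 and 32 distinct peaks. The lists held 2757, 1730 and 4443 peaks, and a longer list can hold more weak ones. When each list was held to its 1730 peaks of lowest p, the DHX9 knockdown share was 36.8% against 8.44% of all protein-coding genes, and the control share 48.5% against 8.05%. The 940 other coding genes with 1 exon in every transcript had a peak in 3.94%, 2.98% and 6.17% of cases, in the same order of lists.

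A peak in all 3 lists was found at 23 histone genes, or 33.8%, against 4.03% of protein-coding genes. At the other end, 24 histone genes (35.3%) had a peak in no list, against 75.1% of protein-coding genes. Of the 38 genes with a control peak, 24 (63.2%, 47.3 to 76.6) also had one in the U2AF1 knockdown list, against 35.4% of all protein-coding genes with a control peak. In reverse, 24 of the 25 genes in the U2AF1 knockdown list (96.0%) had a control peak, against 67.1%. For the DHX9 knockdown list, 32 of the 38 genes with a control peak (84.2%, 69.6 to 92.6) had a peak, against 75.5%. In reverse the share was also 84.2%, against 45.4%. Both comparisons share the control list. The 14 genes whose control peak was not matched after U2AF1 knockdown stood at control ranks from 85 to 2484 of 2757. After DHX9 knockdown 9 of them had a peak, among them H4C3 (control rank 243), H2AC18 (rank 689) and H4C4 (rank 2484). The start region of H2AC18 is identical to that of H2AC19, which had a peak after U2AF1 knockdown. The other 5 had none by the 1000 bp rule: H2BC5 (rank 85), H4C1 (rank 148), H4C16 (rank 1325), and H2AC15 with H2BC15 (rank 1925). The first 2 calls rest on the window. A DHX9 knockdown peak of rank 250 covered H2BC5, with its summit -1490 bp from the start. The control peak counted for H4C1 was that of H3C1, whose summits lay -1067 and -1093 bp away in the U2AF1 and DHX9 knockdown lists.

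**Figure D1:**
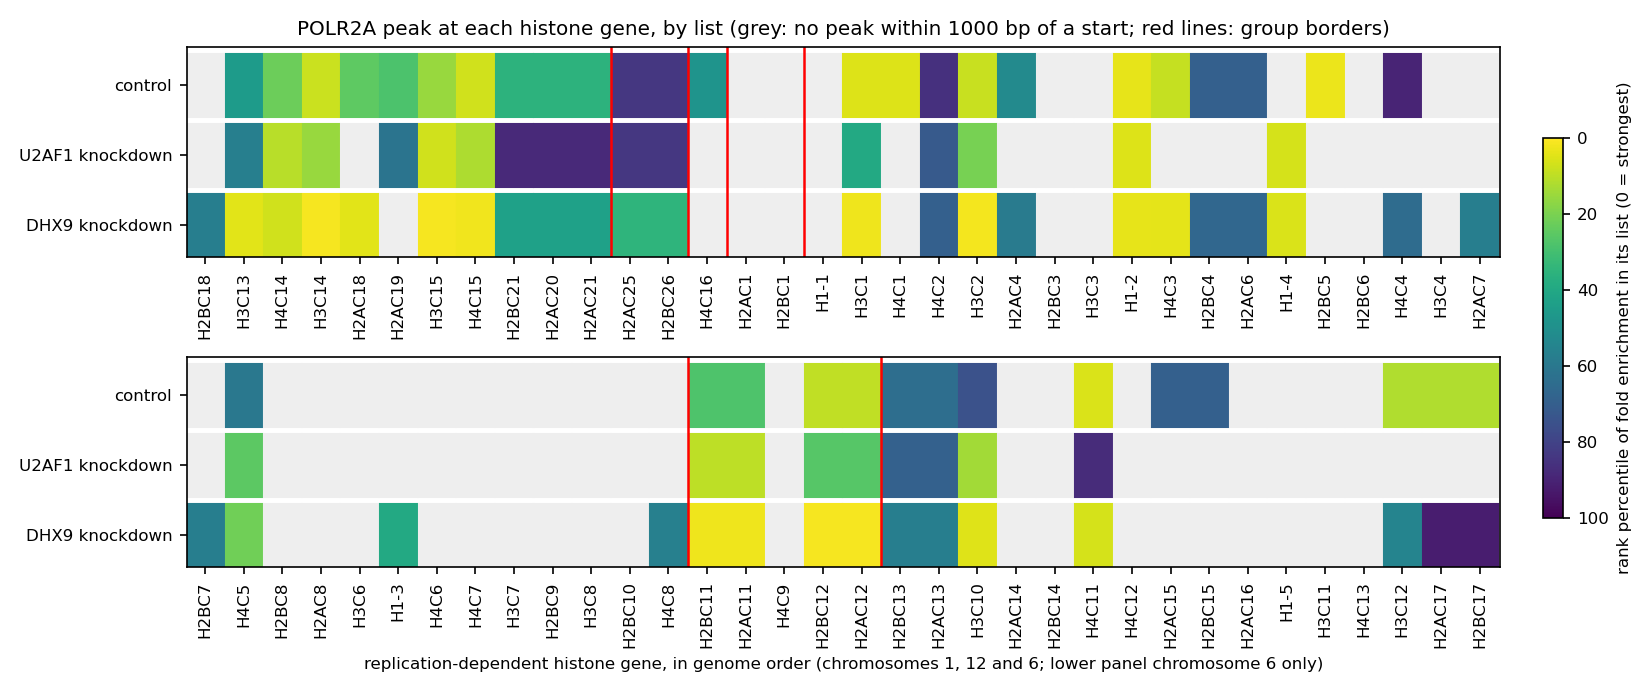
Each column is a histone gene in genome order and each row a peak list; colour gives the rank percentile of the peak's fold enrichment in its own list (0 is the strongest peak) and grey marks genes without a peak. The first group, on chromosome 1, is filled in nearly all columns, and a long grey stretch lies left of the first red line in the lower panel.

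Occupied genes were unevenly spread over the clusters. The group on chromosome 1 from 149811879 to 149887965 holds 11 genes in 76.1 kb, and all 11 had a peak in at least 1 list: 10 in the control, 9 in the U2AF1 knockdown and 10 in the DHX9 knockdown list. The largest group, 31 genes on chromosome 6 from 26017032 to 26285534, had a peak at 12, 6 and 15 genes in the same order. At 14 of the 31 there was a peak in no list. They included 6 neighbours in a run of 33.0 kb, from H4C6 to H2BC10 (26240393 to 26273412). On both sides of that run the DHX9 knockdown list had a peak, at H1-3 and at H4C8, and the other lists had none. Of the 5 genes from H2BC11 to H2AC12 (27132316 to 27147562), 4 had a peak in every list, and H4C9, which lies among them, had none. The last group on chromosome 6, 16 genes from 27807479 to 27893891, had a peak at 9, 4 and 7 genes. H2AC1 and H2BC1, known for expression in testis, had no peak in any list. The pair H2AC25 and H2BC26 on chromosome 1 (228457364 to 228458558) had one in each list. H4C16, alone on chromosome 12, had peaks only in the control list, 2 in number. The stronger (fold enrichment 4.19, rank 1325) lay -25 bp from another annotated start, 525 bp past the 3′ end of the canonical transcript. The other summit lay 103 bp downstream of the canonical start. Within these groups, counting 1000 bp beyond their ends, every peak of the 3 lists lay at a histone gene, and 0 lay elsewhere.

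**Figure D2:**
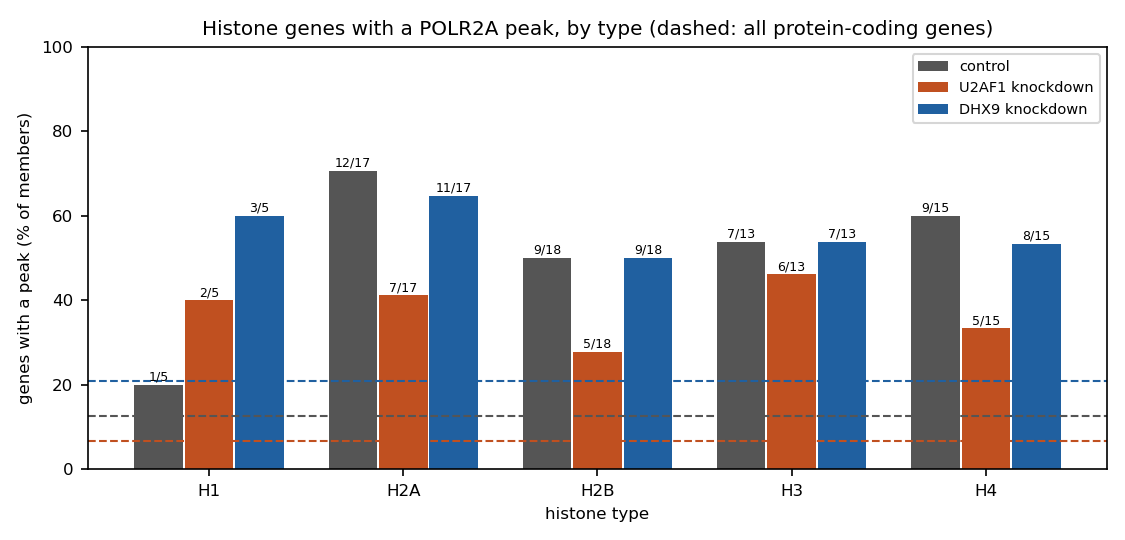
Bars give the percentage of genes of each histone type that had a peak in each list, with the counts above them, and dashed lines give the share of all protein-coding genes in the same list. All bars stand above the dashed line of their own list.

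The fold enrichment of a peak is the authors' own ratio and depends on the depth of its library, so strength is given as a rank within a list. A rank percentile is the rank divided by the length of the list, and the strongest peaks have the lowest values. The median rank percentile of histone genes with a peak was 28.1 in the control list, against 45.8 for all protein-coding genes with a peak. It was 26.2 against 41.6 in the U2AF1 knockdown list and 34.9 against 45.5 in the DHX9 knockdown list. Ranked by fold enrichment, the values in the DHX9 knockdown list fell into separate bands, so that its median describes few genes. There 17 of 38 genes were at 7.31 or below, 1 was at 21.5, and 20 were above 30. Ranked by −log10 p the gap was partly filled. H2AC25 and H2BC26 then stood at 18.6, H2BC21, H2AC20 and H2AC21 at 21.0, and H4C5 at 27.6. Over the alternative settings the DHX9 knockdown median ranged from 6.05, with a window of 2000 bp, to 54.5, with peaks of a −log10 q of at least 5. The control median ranged from 16.2, ranked by −log10 p, to 39.2, with that same limit on q. Among the strongest 5% of the DHX9 knockdown list were peaks at 14 of 38 histone genes (36.8%), against 3.67% of protein-coding genes with a peak. In the control list it was 2 of 38 genes (5.26%), against 2.57%. In the U2AF1 knockdown list it was 0 of 25, against 2.55%, and the highest histone gene stood at 5.38. The contrast between lists depends on the cut. Among the strongest 10% of the control list were 11 of 38 histone genes (28.9%), against 8.43%. The number was 3 of 25 (12%), against 8.26%, after U2AF1 knockdown and 17 of 38 (44.7%), against 9.64%, after DHX9 knockdown. Genes that share a peak were each counted, and genes with near-identical copies were kept.

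**Figure D3:**
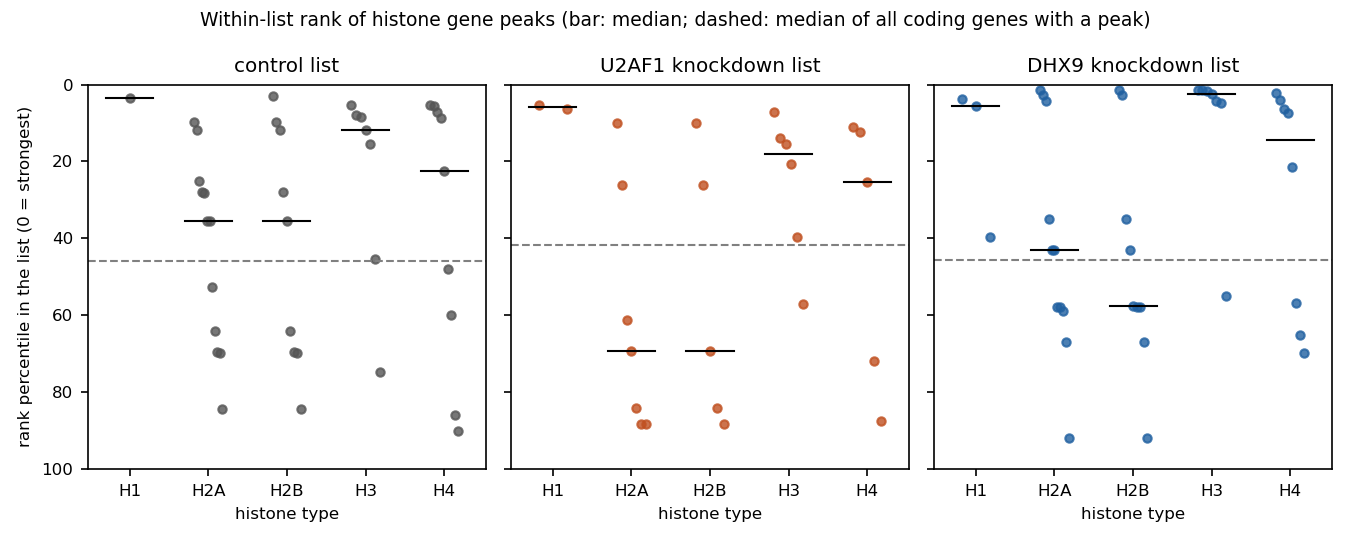
Each point is a histone gene with a peak, placed by the rank percentile of its peak in the list (0, at the top, is the strongest); bars are medians by type and the dashed line is the median of all protein-coding genes with a peak. In the DHX9 knockdown list 6 of the 7 H3 genes lie below 5.

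The linker histones, H1, bind the DNA between nucleosomes. H1-2 (chromosome 6, 26055740 to 26056470, minus strand) had a peak in each list, with a fold enrichment of 10.2 in the control, 9.54 in the U2AF1 knockdown and 10.6 in the DHX9 knockdown list. Its ranks were 100, 93 and 168, and it was the highest histone gene of the U2AF1 knockdown list. H1-4 (chromosome 6, 26156329 to 26157115, plus strand) ranked 110 after U2AF1 knockdown (fold enrichment 8.95) and 250 after DHX9 knockdown (9.35). By the 1000 bp rule it had no control peak. A control peak did cover it, from 26156221 to 26159048, ranking 85 (fold enrichment 10.9), but the summit lay 1079 bp from the start, just outside the window. The same summit lay -714 bp from the start of H2BC5 and was counted there. The control count of H1 genes, 1 of 5, thus rests on the window. H2AC21 also lay near its edge, inside it, with summits 902, 929 and 818 bp from the start in the order control, U2AF1 and DHX9 knockdown. H2BC18 lay outside it in the control list, at -1204 bp, although the control peak (rank 1250) covered its whole canonical transcript. By the 1000 bp rule H2BC18 had a peak only after DHX9 knockdown (5.005, rank 2562). H1-3 had a peak only in the DHX9 knockdown list, of rank 1764. H1-1 and H1-5 had none.

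The promoter of H1-4 (chr6:26156079-26156378, plus strand; RefSeq, GRCh38.p14) is shown because H1-4 lay just outside the window in the control list alone. It runs from 250 bases before the start to 50 after, and capitals mark the TATA box motif TATAAA, the CCAAT box and the H1 promoter motif AAACACA, on either strand.
H1-4: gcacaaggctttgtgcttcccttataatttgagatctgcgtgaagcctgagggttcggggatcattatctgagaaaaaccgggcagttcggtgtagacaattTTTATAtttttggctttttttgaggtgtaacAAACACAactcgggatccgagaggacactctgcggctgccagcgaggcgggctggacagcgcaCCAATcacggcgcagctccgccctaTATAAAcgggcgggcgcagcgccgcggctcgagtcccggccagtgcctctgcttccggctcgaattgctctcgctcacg
AAACACA was found on either strand in 5 of 5 H1 promoters, against 4.41% of protein-coding promoters of the same length. At H1-1 the only match lay on the opposite strand, at -183 bp. H1-2 and H1-4, which had strong peaks, held it as written at -119 and -117 bp. H1-5, which had no peak, also held it at -117 bp.

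Genes for H2A and H2B, which form a dimer in the nucleosome, mostly stand in pairs that are transcribed away from each other. Of the members, 24 formed 12 such pairs, with starts 194 to 251 bp apart. Where a pair had a peak, both genes were called from the same peak: 8 pairs in the control, 5 in the U2AF1 knockdown and 8 in the DHX9 knockdown list. The summit lay on the H2A side of both starts at 6 of 8 pairs in the control, 4 of 5 in the U2AF1 knockdown and 8 of 8 in the DHX9 knockdown list. In no pair did the strongest summit lie between the starts. Counts for H2B thus hold H2A summits: 9, 5 and 9 of 18 H2B genes had a peak, against 12, 7 and 11 of 17 H2A genes.

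The pair H2BC12 and H2AC12 (starts at 27146855 and 27147106) held the strongest histone peak found after DHX9 knockdown, of rank 59 and fold enrichment 19.3. It had 6.53 and rank 268 in the control list, and 5.78 and rank 454 in the U2AF1 knockdown list. At H2BC11 and H2AC11 the fold enrichment was 4.96, 7.51 and 12 in the order control, U2AF1 and DHX9 knockdown, of rank 771, 174 and 118. H2BC13 and H2AC13 lay lower in every list, at 3.71, 4.08 and 5.00, of rank 1770, 1201 and 2568. H2AC25 and H2BC26 had 3.00, 3.41 and 5.93, of rank 2324, 1455 and 1552. A shared peak served H2BC21, H2AC20 and H2AC21, with 4.605, 2.94 and 5.58, of rank 981, 1529 and 1911. All these genes were found in every list, at widely differing places. H2AC7 and H2BC7 had a peak only in the DHX9 knockdown list (5.00, rank 2568), and H2AC15 and H2BC15 only in the control list (3.54, rank 1925). H2AC1 with H2BC1, H2BC8 with H2AC8, and H2AC14 with H2BC14 had none.

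The window of H2BC12 (chr6:27146806-27147105, minus strand; RefSeq, GRCh38.p14) is shown because it spans nearly the whole interval between both starts of the strongest pair. Capitals mark the TATA box motif TATAAA, the CCAAT box and the octamer ATTTGCAT, known from H2B promoters, on either strand.
H2BC12: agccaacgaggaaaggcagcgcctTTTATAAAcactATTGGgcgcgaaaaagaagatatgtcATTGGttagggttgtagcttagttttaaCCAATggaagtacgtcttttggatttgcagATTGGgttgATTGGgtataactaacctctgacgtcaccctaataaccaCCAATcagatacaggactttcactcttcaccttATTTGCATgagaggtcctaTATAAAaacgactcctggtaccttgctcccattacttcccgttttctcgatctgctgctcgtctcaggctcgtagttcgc
ATTTGCAT was found in 14 of 18 H2B promoters and in 11 of 16 H2A promoters; the windows of a pair overlap, so that 1 match can be counted for both genes. It was found in 1.64% of protein-coding promoters and in no H1, H3 or H4 promoter of the table.

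H3 carries many of the known chromatin marks on its tail. Of 13 H3 genes, 7 had a peak in the control, 6 in the U2AF1 knockdown and 7 in the DHX9 knockdown list. The 6 with a peak in all lists were H3C1, H3C2, H3C10, H3C13, H3C14 and H3C15, and these 6 all stood among the strongest 5% of the DHX9 knockdown list, at ranks 62 to 216. H3C2 (chromosome 6, 26031589 to 26032099, minus strand) had a fold enrichment of 6.80 in the control, 6.09 in the U2AF1 knockdown and 16.1 in the DHX9 knockdown list, of rank 231, 357 and 73. H3C1 had 8.49, 5.11 and 12.4, of rank 148, 688 and 106. H3C10 had 3.39 and rank 2064 in the control list, a rank percentile of 74.9 by fold enrichment and 44.1 by −log10 p. It had 6.80 and rank 241 under U2AF1 knockdown and 9.85 and rank 216 under DHX9 knockdown. H3C13 had 4.27, 4.49 and 10.1, of rank 1250, 989 and 196. These are places in lists of unequal length and not measured changes. H3C12 was counted in the control list only through an annotated start at 27893106, next to H2AC17, whose peak it shared.

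The promoter of H3C2 (chr6:26032050-26032349, minus strand; RefSeq, GRCh38.p14) is shown as that of the highest H3 gene of the DHX9 knockdown list without a near-identical copy. Capitals mark the TATA box motif TATAAA and the CCAAT box.
H3C2: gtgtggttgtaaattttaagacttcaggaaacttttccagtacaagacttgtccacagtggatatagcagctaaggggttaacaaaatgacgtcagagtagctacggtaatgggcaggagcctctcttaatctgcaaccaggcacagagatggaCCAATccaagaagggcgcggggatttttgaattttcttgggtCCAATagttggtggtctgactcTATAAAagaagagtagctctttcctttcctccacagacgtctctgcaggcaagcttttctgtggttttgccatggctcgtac
TATAAA began -35 to -25 bp from the start in 34 of 63 histone promoters, against 3.00% of protein-coding promoters. The motif was found anywhere in the window in 28 of the 40 histone promoters whose gene had a peak in at least 1 list and in 14 of the 23 without one. CCAAT was found anywhere in the window in 11 of 11 H3 promoters and in 3 of 13 H4 promoters, against 34.9% of protein-coding promoters. The table held promoters for 63 members, all at the GENCODE start, and not for H2AC12, H3C11, H3C12, H4C1 and H4C3.

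H4 pairs with H3 in the core of the nucleosome. Of 15 H4 genes, 9 had a peak in the control, 5 in the U2AF1 knockdown and 8 in the DHX9 knockdown list, and 5 had one in all lists: H4C2, H4C5, H4C11, H4C14 and H4C15. H4C11 (chromosome 6, 27824092 to 27824480, plus strand) had fold enrichments of 8.19 (rank 157) in the control list, 3.10 (rank 1515) after U2AF1 knockdown and 8.98 (rank 288) after DHX9 knockdown. H4C3 had 6.74 and rank 243 in the control list and 10.3 and rank 184 in the DHX9 knockdown list, with no peak under U2AF1 knockdown. H4C5 had 3.82, 5.81 and 6.67, of rank 1651, 439 and 957. H4C2 stood low in each list by fold enrichment, with 2.94, 3.98 and 4.57, of rank 2372, 1246 and 3105. Its rank percentiles were 86.0, 72.0 and 69.9 by fold enrichment and 77.7, 63.0 and 35.5 by −log10 p, in the same order. H4C8 had a peak only in the DHX9 knockdown list (5.06, rank 2520). H4C1 was counted in the control list only because the summit of the H3C1 peak lay -963 bp from its start, just inside the window. In the knockdown lists that summit lay -1067 and -1093 bp away, just outside it.

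H4C12 (chromosome 6, 27831174 to 27831560, minus strand) had no peak in any list, although its start region matched that of H4C11 with 98.1% identity over 679 bp. Their promoters (chr6:27823842-27824141, plus strand, and chr6:27831511-27831810, minus strand; RefSeq, GRCh38.p14) are shown because near-identical neighbours differed in every list. Capitals mark the 5 of 300 positions at which they differ.
H4C11: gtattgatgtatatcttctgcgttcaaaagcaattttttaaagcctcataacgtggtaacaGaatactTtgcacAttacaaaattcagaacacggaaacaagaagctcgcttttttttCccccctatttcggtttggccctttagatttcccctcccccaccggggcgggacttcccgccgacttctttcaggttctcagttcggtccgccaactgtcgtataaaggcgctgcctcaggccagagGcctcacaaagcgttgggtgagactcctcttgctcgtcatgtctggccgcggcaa
H4C12: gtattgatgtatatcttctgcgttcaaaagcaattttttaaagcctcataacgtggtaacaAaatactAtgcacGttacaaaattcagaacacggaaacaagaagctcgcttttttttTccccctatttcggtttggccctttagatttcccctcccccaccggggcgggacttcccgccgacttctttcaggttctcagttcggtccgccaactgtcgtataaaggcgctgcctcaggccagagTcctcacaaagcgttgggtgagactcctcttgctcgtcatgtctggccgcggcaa
Both hold TATAAA at -31 bp and GGTCCG, part of the H4 element, at -47 bp, and none of the differing positions lies in either motif. GGTCCG was found in 12 of 13 H4 promoters and in 3 of the other 50 histone promoters, against 14% of protein-coding promoters, on both strands. How reads that fit both copies were placed is not given in the sources used here.

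Near-identical copies also concern the group on chromosome 1. The 1001 bp around the start were 100% identical between H3C14 and H3C15, between H2AC18 and H2AC19, and between H4C14 and H4C15. Values within these pairs cannot be told apart by sequence in that window. The control list gave H3C14 and H3C15 fold enrichments of 6.96 and 5.80, the U2AF1 knockdown list 6.58 and 8.51, and the DHX9 knockdown list 17.6 and 18.7. H4C14 and H4C15 had 5.28 and 7.22 in the control list, 7.34 and 7.03 in the U2AF1 knockdown list, and 8.67 and 13.3 in the DHX9 knockdown list. H2AC18 and H2AC19 had 5.10 and 4.95 in the control list, but opposite calls in the others. After U2AF1 knockdown only H2AC19 had a peak (4.32), and after DHX9 knockdown only H2AC18 had one (10.2). H3C13 and H2BC18 had copies of 98.4% identity elsewhere on chromosome 1. Without the 10 members with such copies, 30 of 58 genes had a peak in the control, 18 in the U2AF1 knockdown and 30 in the DHX9 knockdown list.

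Peaks at histone genes were wide. Their median width was 925.5 bp in the control list, against 322 bp for all peaks at protein-coding starts. After U2AF1 knockdown it was 356 against 282 bp, and after DHX9 knockdown 680 against 325 bp. Of the control peaks at coding starts, 1.30% were wider than 1000 bp, 28 in number, and 14 of these lay at histone genes. The numbers were 4 of 7 in the U2AF1 knockdown list, where 0.618% were that wide, and 8 of 24 in the DHX9 knockdown list, where 0.654% were. The widest peak at a coding start lay at a histone gene in each list: the control peak over H1-4 and H2BC5 (2828 bp), the U2AF1 knockdown peak at H1-4 (1663 bp) and the DHX9 knockdown peak over H2AC19 and H3C15 (2695 bp). That peak covered H2AC19, whose only missing call is in the DHX9 knockdown list, with a summit at H3C15. Of the wide peaks, 6 of 14 in the control, 0 of 4 in the U2AF1 knockdown and 4 of 8 in the DHX9 knockdown list held the starts of more than 1 histone gene. At the 23 genes with a peak in all lists, peaks covered the whole canonical transcript at 14 genes in the control, 5 in the U2AF1 knockdown and 14 in the DHX9 knockdown list.

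**Figure D4:**
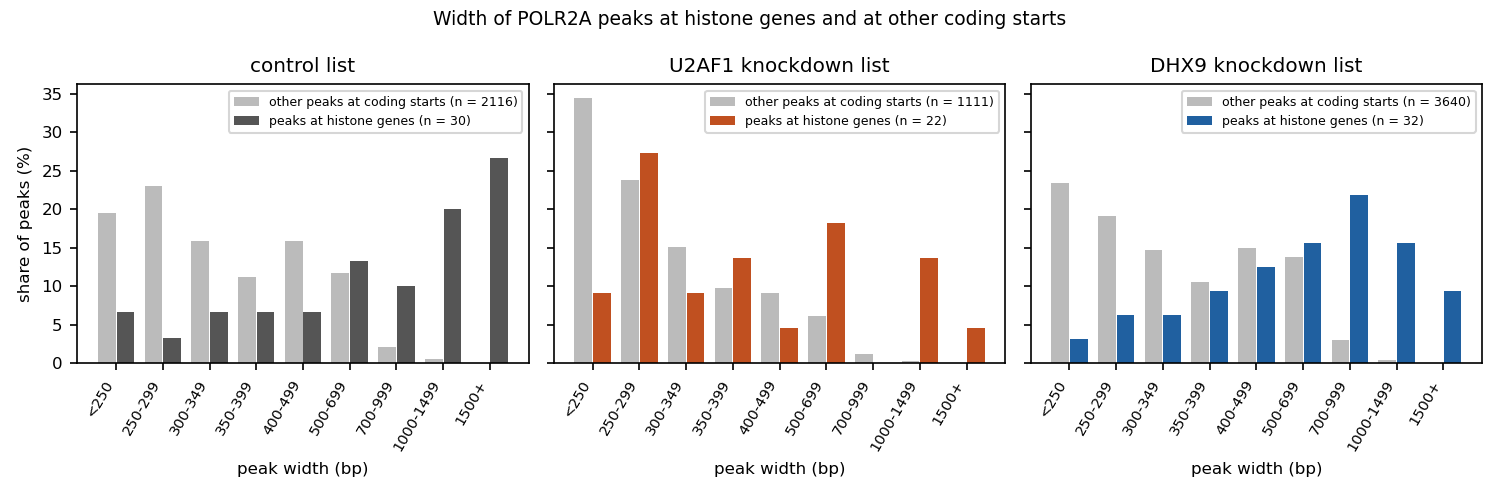
Bars give the share of peaks in each width class (bp) for peaks at histone genes and for all other peaks at protein-coding starts, by list. Peaks of 1000 bp or more make up a large share of the histone peaks in the control list and almost none of the others.

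Most summits lay downstream of a start. The median distance from the nearest coding start was 115.5 bp downstream in the control list, against 25 bp for all peaks at coding starts. It was 124.5 against 35 bp after U2AF1 knockdown and 138.5 against 20.0 bp after DHX9 knockdown. All 22 and 32 distinct histone peaks of the knockdown lists had their summit downstream of the nearest start, as did 27 of 30 in the control list. Among all peaks at coding starts the summit was downstream in 71.3% (U2AF1 knockdown), 64.0% (DHX9 knockdown) and 66.1% (control). Counted by gene and canonical start, the control summit lay inside the transcript at 20 of 38 genes, past its 3′ end at 7 and upstream at 11. The summit lay inside at 19 of 25 genes after U2AF1 knockdown and at 29 of 38 after DHX9 knockdown. Where a gene had a peak in 2 lists, the median shift of the summit was 47.5 bp between control and U2AF1 knockdown (24 genes) and 75 bp between control and DHX9 knockdown (32 genes). The shift was over 250 bp at 6 of these 24 and at 8 of these 32 genes.

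At H1-2, H1-4, H4C5 and H2AC11, picked after their values were seen, the control summit lay outside the transcript and both knockdown summits inside it. At H1-2 it was 855 bp downstream of the start, past the 3′ end of the 731 bp transcript, while the U2AF1 knockdown summit was at 140 bp and the DHX9 knockdown summit at 124 bp. At H1-4 it lay at 1079 bp, 293 bp past the 3′ end, against 218 and 303 bp inside the gene. At H4C5, whose transcript is 412 bp long, it lay at 760 bp, against 166 bp after U2AF1 knockdown and 120 bp after DHX9 knockdown. At H2AC11 it lay at -890 bp in the control list and at 158 and 191 bp in the others; the DHX9 knockdown list had 3 peaks there, of which the strongest is given. At H2AC25 the U2AF1 knockdown list had 2 peaks, the stronger with its summit outside, at -305 bp, and the other at 62 bp. The summit lay at 64 bp in the control list and at 139 bp after DHX9 knockdown. At H3C2 and H4C11 all 3 summits lay between 48 and 204 bp. Only the highest point of each peak is listed, and the shape of the signal was not analysed here.

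**Figure D5:**
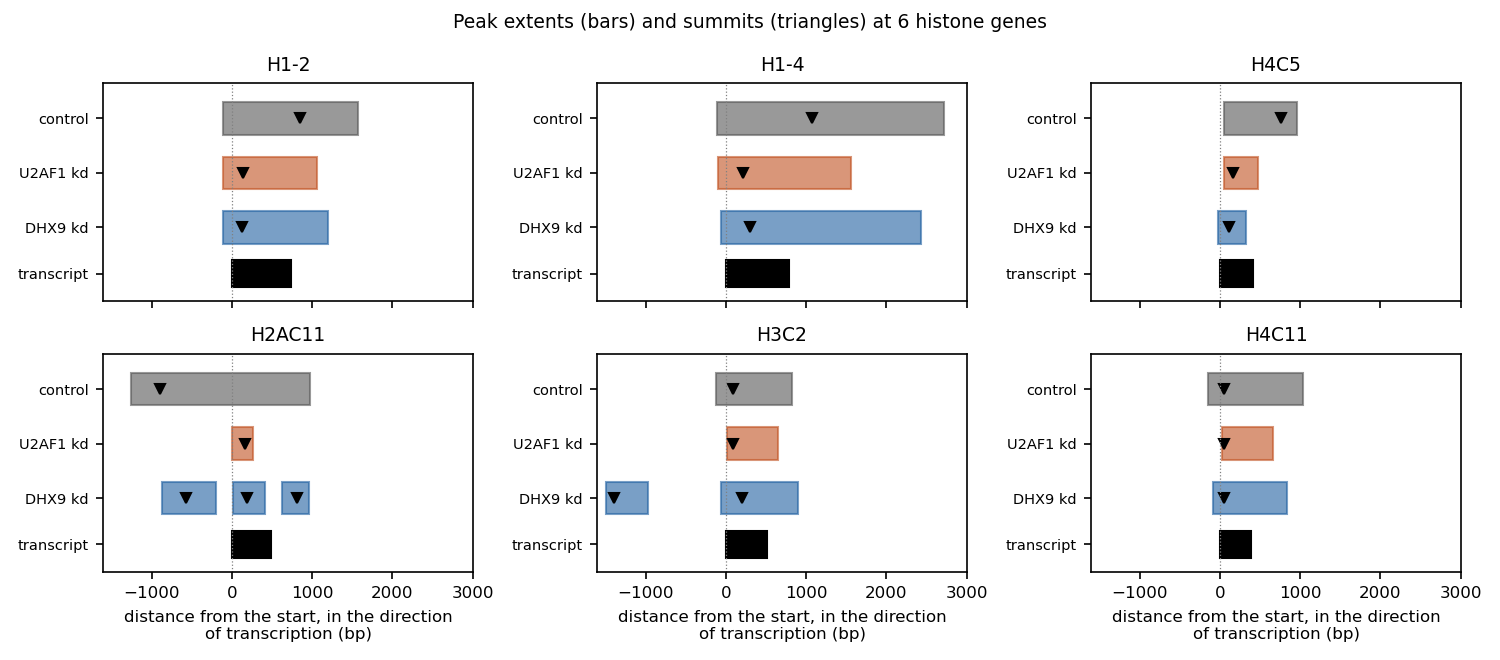
Bars show the extent of peaks and triangles their summits at 6 histone genes, by list, as distance from the start in the direction of transcription (bp); black boxes are the canonical transcripts and kd stands for knockdown. At H1-2, H1-4 and H4C5 the control summit lies past the end of the transcript, and at H3C2 and H4C11 a summit of each list lies within it; the DHX9 knockdown peak upstream of H3C2 is outside the window of 1000 bp.

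Other histone genes and the factors that serve histone genes were read from lists. For the 12 histone genes listed as replication-independent, deposition of the products is not limited to S phase. Of these 12, 8 (66.7%) had a peak in the control, 8 in the U2AF1 knockdown and 8 in the DHX9 knockdown list. They were not the same genes throughout: CENPA, the centromere variant, had none after DHX9 knockdown, and H2AZ2, which encodes a form of the variant H2A.Z, had one only there. H3-3B, which encodes the variant H3.3, had a fold enrichment of 6.24, 8.05 and 14.1 in the control list, after U2AF1 and after DHX9 knockdown, of rank 315, 143 and 88. H2AX, the variant marked at DNA breaks, had 6.13, 9.04 and 12.3, of rank 334, 108 and 110. None of 7 histone genes of testis or oocyte had a peak in any list. Of 18 factors of histone gene transcription and histone mRNA 3′ end processing, 2 (11.1%) had a peak in the control, 2 (11.1%) in the U2AF1 knockdown and 4 (22.2%) in the DHX9 knockdown list. Among all protein-coding genes the shares were 12.6%, 6.64% and 21.0%. SLBP was the only one found in all 3 lists, at rank 1079, 376 and 1099. NPAT had none.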

How the data were processed

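POLR2A was profiled by ChIP-seq in HEK293T cells. The submitters' processing notes name Bowtie2 2.4.5, MACS2 2.2.7.1, deepTools 3.5.1 and the build hg38, without their roles. Per the labels, both ChIP replicates of a condition name 1 deposited list. Peak names of the control list end like a replicate number, and whether that list rests on 1 replicate is not stated. Read filters, the use of the input and read depth are not given in the sources used here. For each peak the authors deposited positions in base pairs, a fold enrichment (a linear ratio over a background that the files do not name), −log10 p and −log10 q, and a score, which is −log10 q times 10 and was not used.

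Summits were assigned to starts of GENCODE version 44 with Python 3.11.15, pandas 2.3.3 and numpy 2.4.6. The assignment was tested on 200 simulated summits, of which 200 were placed correctly. A gene with several peaks was given the one of highest fold enrichment. Promoters came from RefSeq (GRCh38.p14), and copies were sought with blastn 2.17.0 in the 500 bp to each side of the start, requiring 98% identity over 500 bp. Wilson intervals were computed with scipy 1.17.1. Groups of genes on a chromosome were split at gaps over 100 kb. Any histone gene with a peak could be named. Values were always given for the strongest 3 of each list, those in all lists, up to 3 of those in 1 list only and those nearest to the window's edge. The members and gene lists were chosen with earlier results of these data known. No enrichment test was run. The alternatives were windows of 500 and 2000 bp, −log10 q of at least 5, equal list lengths, canonical starts, nearest starts, overlap with the gene, ranking by −log10 p and, added after seeing the data, leaving out genes with near-identical copies.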

Additional observations from a re-analysis of the deposited data

How the results depend on the processing

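Of 54 alternative values, 50 stayed within the 95% interval of the reported value and 4 moved out of it. With each summit given to the nearest start only, 41.2% of histone genes had a control peak, against 10.5% of all protein-coding genes. With equal list lengths of 1730 peaks, 36.8% had a DHX9 knockdown peak, against 8.44% of all protein-coding genes. At these lengths 66.7% of those with a control peak also had one in the DHX9 knockdown list. With a −log10 q of at least 5, 47.2% of those with a control peak also had one in the U2AF1 knockdown list. For 66.7% and 47.2% the share over all protein-coding genes in the shortened lists was not computed, so neither can be set against a background. The cause of the 4 moves was not tested, except that equal lengths remove peaks from the DHX9 knockdown list by construction. The intervals of the median ranks are wide, so staying inside them says little: the DHX9 knockdown median ranged from 6.05 to 54.5 and the control median from 16.2 to 39.2 over the alternatives. The values 54.5 and 39.2 were ranked within lists shortened by the limit on q. The unknown depth limits which weak peaks a list can hold, so a gene without a peak is not shown to be free of polymerase. No paired analysis was possible because only 1 list per condition was used. For the same reason no replicate could be left out.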
